A study of Homo sapiens with 12 samples.

Results

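The all-or-none genes of this series were counted in single eHAP1 cells without and with a knockout of SCC4. They were chosen by the UMIs summed over all cells of a genotype, as the genes with at least 100 in 1 genotype and none in the other. The contrast between genotypes is therefore given for them as a description without a test. The rule was met by 44 of the 23939 genes listed for either genotype, 30 with UMIs in WT cells alone and 14 with UMIs in SCC4 KO cells alone. They were 0.289% of the genes with at least 100 UMIs in WT, 0.135% of those with at least 100 UMIs in SCC4 KO and 0.396% of the 11098 genes that reached 100 UMIs in either genotype. A UMI is a random tag that marks an RNA molecule before amplification, so the number of UMIs counts captured molecules.

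eHAP1 is an established haploid human line derived from a chronic myeloid leukemia. WT cells carried no edit of SCC4, and SCC4 KO cells were grown from single cells of the same line treated with Cas9 protein and a guide RNA to SCC4, the gene annotated as MAU2. Live haploid cells in G1 phase were sorted into wells, and LAST-seq was performed, in which T7 polymerase amplifies the captured poly-A RNA directly. There was 1 sample per genotype, with the cells of 2 batches under each label, so no p-value between genotypes was computed. The methods also describe the cells compared as a population expanded from a single cell, but how many SCC4 KO clones were used is not stated. A difference between clones and an effect of the knockout cannot be told apart here. HEK293T cells, a line from embryonic kidney with LAST-seq, SMART-seq and CEL-seq2 data, were used to see whether the genes were detected elsewhere.

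SCC4 binds NIPBL, and the pair loads the cohesin ring onto DNA, where the ring extrudes loops until it meets CTCF. Cohesin loops bring genes and distant regulatory elements of a domain together. Reads of a gene that overlaps another, or that has a copy elsewhere, can be assigned to the partner, and partner genes and copies are therefore given beside the counts.

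The guide target was found at 1 place on the chromosome of MAU2, in an annotated exon at chr19:19338850-19338872 on the plus strand of GRCh38. It is shown because it defines the knockout. The 3 capitals mark the PAM, the motif next to the target that Cas9 needs.
SCC4 guide target: gcacacgcttgagaaggaccTGG

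MAU2 itself held 326 and 507 UMIs in the batches of WT cells and 59 and 169 UMIs in those of SCC4 KO cells. Scaled to total UMIs, its level in SCC4 KO was 0.298 of the WT level. The RNA of an edited gene need not vanish, and MAU2 was not all-or-none. NIPBL, its partner, held 714 UMIs in WT and 582 in SCC4 KO, a ratio of 0.885, and the cohesin subunit RAD21 held 6063 and 4767, a ratio of 0.854. SMC1A was at 0.874, SMC3 at 0.709, STAG2 at 0.991 and STAG1 at 1.83 of WT, the last from 48 and 81 UMIs. The release factor WAPL held 323 and 358 UMIs, and CTCF was at 1.05 of WT.

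The tables held 148 WT cells with 19671946 UMIs and 153 SCC4 KO cells with 18112712 UMIs. The median UMIs per cell were 89978 and 143882 in the batches of WT, and 81789 and 152433 in those of SCC4 KO. WT and SCC4 KO cells shared 72 designed well barcodes in batch 1 and 73 in batch 2. Of the blood markers, PTPRC, GATA1, SPI1, CD33 and HBG1 held no UMI in either genotype and CD34 held 18 UMIs in SCC4 KO alone. Among kidney genes, PAX2 held 307 UMIs in WT and 469 in SCC4 KO, LHX1 164 and 367, and EYA1 1 and 7. The fibroblast genes differed in direction, with 4004 and 1822 UMIs for VIM, 81 and 267 for COL1A1 and 3 and 7 for COL1A2. The deposited values were whole numbers, but their steps differed from those of HEK293T cells. Among genes with 100 to 320 UMIs, the value 3 was found 39016 times and the value 2 was found 23237 times in WT batch 2, a ratio of 1.68. The ratio was 0.728 in WT batch 1, 1.22 in SCC4 KO batch 1 and 1.06 in SCC4 KO batch 2. In HEK293T cells profiled by LAST-seq, at like means per cell, the value 3 was found at 0.486 and 0.475 times the frequency of the value 2. The methods name ComBat-seq for batch effects in eHAP1 cells, and whether the deposited numbers precede that step is not stated. Its part in the results was not tested.

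A first question was what "none" means in these tables. All 44 genes were absent from the other genotype's table, and none of them was listed there with zeros. The absence of a row is not a measured 0, since a table lists just the genes it was built with, and no upper limit can be drawn from it. Genes were listed down to very low totals, though. Rows with a total of 0, 1 and 2 UMIs numbered 43, 310 and 938 in WT and 1, 59 and 908 in SCC4 KO. How the rows were chosen is not stated. Of the 10383 genes with at least 100 UMIs in WT, 30 had no row for SCC4 KO, 6 held 1 to 10 UMIs there and 29 held 11 to 20. Of the 10382 such genes of SCC4 KO, 14 had no row for WT, 14 held 1 to 10 UMIs and 25 held 11 to 20. For genes high in WT, having no row was thus more frequent than having a very low count.

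**Figure D1:**
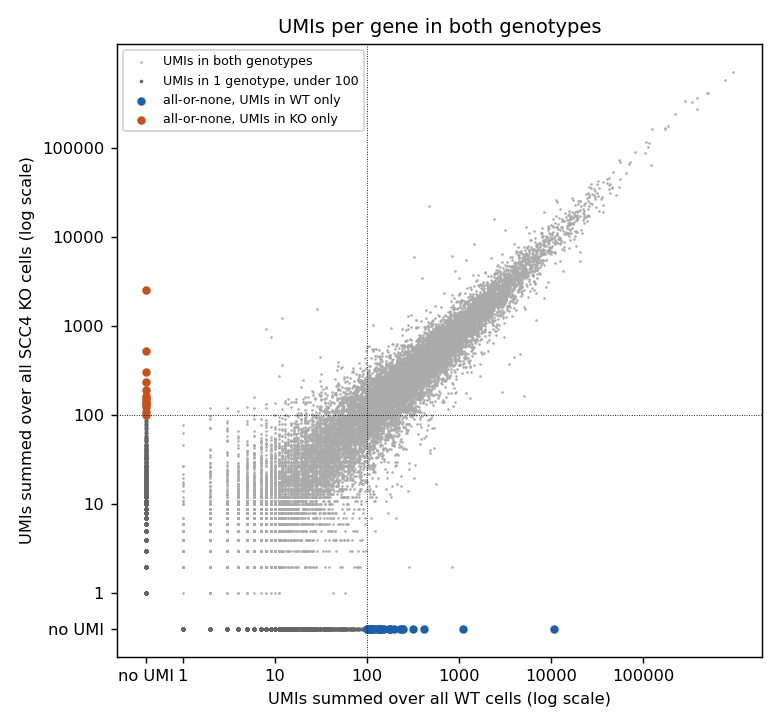
Each point is a gene, with the UMIs summed over WT cells on the horizontal and over SCC4 KO cells on the vertical log axis, and genes without a UMI in 1 genotype drawn on the line "no UMI". The 30 blue and 14 orange all-or-none genes lie past the dotted lines at 100 UMIs, and most of them are close to that line.

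The share of genes without a row fell with their level in the genotype that listed them. In WT it was 60.7% for 1 to 4 UMIs, 10.7% for 20 to 49 UMIs, 4.79% for 50 to 99 UMIs, 1.05% for 100 to 199 UMIs and 0.154% for 200 to 499 UMIs. In SCC4 KO it was 53.2%, 8.33%, 1.93%, 0.439% and 0.0594% at the same levels. The 44 genes were the upper end of this series, and 33 of them held no more than 200 UMIs.

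**Figure D2:**
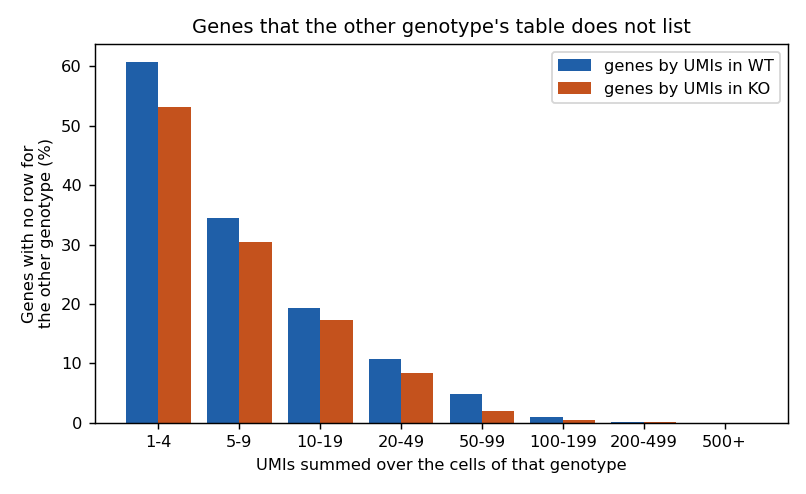
Bars give the percentage of genes with no row in the other genotype's table, by the UMIs summed over the cells of WT (blue) or SCC4 KO (orange). The bars fall from 60.7% and 53.2% at 1 to 4 UMIs to 1.05% and 0.439% at 100 to 199 UMIs.

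At the threshold, the genes just inside were ABCC6 and FRMD3 with 101 UMIs and GRK5 with 102 in WT, and C14orf28 with 102, HOXA6 with 110 and RHEBL1 with 125 in SCC4 KO. Just outside were BMP5, THY1 and ENSG00000215154 with 99 UMIs each in WT, and RNU6-353P with 89, SYT7 with 88 and ENSG00000286862 with 86 in SCC4 KO, all without a row for the other genotype. Genes also stayed outside because of a few UMIs in the other genotype. CTSF held 828 UMIs in WT and 2 in SCC4 KO and SRL 286 and 2, while PLXNA4 held 2 UMIs in WT and 120 in SCC4 KO, TAFA5 3 and 122, and CNTN1 4 and 113.

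By gene type, 22 of the 44 genes were protein coding and 15 were long noncoding RNAs, and 7 were pseudogenes, small RNAs or an entry awaiting annotation. Long noncoding RNAs made up 34.1% of them and 4.64% of the other genes with at least 100 UMIs. Since low genes are more often noncoding, the same was counted for genes with 100 to 320 UMIs. There, 14 of 39 all-or-none genes (35.9%) and 337 of 3980 other genes (8.47%) were long noncoding, and 51.3% and 77.2% were protein coding. The genes lay on 20 chromosomes, with 6 on chromosome 12, 5 on chromosome 1 and 2 on chromosome X. The closest pair, RAET1K and ENSG00000202343, started 410.5 kb apart on chromosome 6, and the next pair was 1743.1 kb apart. No chromosome segment thus held a run of them.

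Of the gene families counted, 16 HOX genes reached 100 UMIs and 1 of them, HOXA6, was all-or-none. None of the 244 zinc finger genes, 5 metallothionein genes, 8 imprinted genes and 1 cancer-testis gene that reached this level was all-or-none. The share over all genes that reached it was 0.396%, so finding none does not set these lists apart. No clustered protocadherin gene reached 100 UMIs.

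The split between batches was looked at next. The choice of genes used the sum over both batches, so a gene could reach 100 UMIs through 1 batch or 1 cell. The split is therefore given as a description. UMIs were found in both batches for 29 of 30 WT genes and 14 of 14 SCC4 KO genes, while 100% of the other annotated genes with at least 100 UMIs had UMIs in both, in WT and in SCC4 KO. At least 10 UMIs in each batch were found for 21 WT genes (70.0%) and 11 SCC4 KO genes (78.6%), against 99.9% and 99.8% of the other genes. Scaled to the total UMIs of a batch, with 0.5 UMI added, 9 of the 30 WT genes and 3 of the 14 SCC4 KO genes differed more than 10-fold between the batches of their own genotype. Among the other genes with at least 100 UMIs this share was 0.164% in WT and 0.164% in SCC4 KO. Among other genes with 100 to 320 UMIs it was 0.443% and 0.377%.

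**Figure D3:**
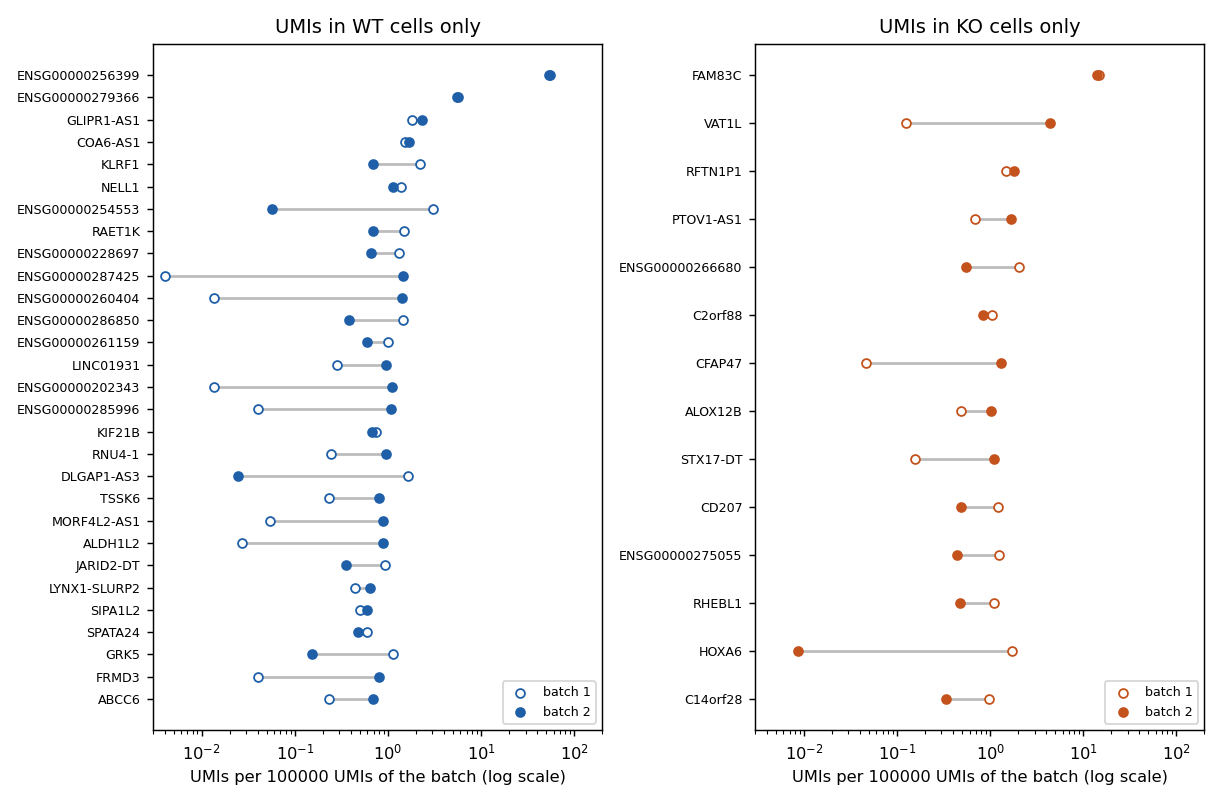
For each gene named in the text, the UMIs per 100000 UMIs of a batch are drawn on a log axis, with open points for batch 1 and filled points for batch 2, for WT (left) and SCC4 KO (right). ENSG00000287425, without a UMI in batch 1, is drawn at the left edge. ENSG00000256399, ENSG00000279366 and FAM83C lie at the same level in both batches, whereas 12 genes are spread by more than 10-fold.

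Of the 32 genes within 10-fold between batches, the highest was ENSG00000256399, a processed pseudogene at chr12:63887379-63888598 on the minus strand. It held 3984 UMIs in batch 1 and 6827 in batch 2 of WT, or 54.1 and 55.5 UMIs per 100000, and was found in all 73 and all 75 cells. The lower bound of the exact 95% interval for the share of positive cells was 97.5%, and intervals here cover counting error only. The single highest cell held 6.86% of its UMIs. It lies within an intron of SRGAP1 on the opposite strand, 42496 bases from the nearest SRGAP1 exon, and SRGAP1 held 85 UMIs in WT and 110 in SCC4 KO. No transcript at another locus shared 100 bases at 90% identity with its last 500 bases. Its 3′ end is printed because it is the highest all-or-none gene, with 50 bases past the annotated end and the 8 longest runs of A in capitals.
ENSG00000256399, chr12:63887329-63887628, minus strand: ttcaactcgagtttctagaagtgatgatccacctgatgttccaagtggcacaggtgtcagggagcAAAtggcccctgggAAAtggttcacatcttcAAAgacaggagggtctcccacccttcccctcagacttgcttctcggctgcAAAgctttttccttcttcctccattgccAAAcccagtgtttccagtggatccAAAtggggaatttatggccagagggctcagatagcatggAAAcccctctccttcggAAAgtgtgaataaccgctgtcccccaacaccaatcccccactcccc

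These runs had 3 bases each. The next in WT was ENSG00000279366, an entry of 298 bases within SMAD2 on the same strand, 7568 bases from the nearest SMAD2 exon. It held 411 and 692 UMIs in the batches, was found in 145 of 148 cells (exact 95% interval 94.2% to 99.6%) and had 5.58 and 5.63 UMIs per 100000. SMAD2, a transducer of TGF-beta signals, held 903 UMIs in WT and 892 in SCC4 KO, a ratio of 1.07. The host gene was therefore level where the entry inside it was all-or-none. The entry is shown whole, with its 2 longest runs of A, of 4 bases each, in capitals.
ENSG00000279366, chr18:47912207-47912504, minus strand: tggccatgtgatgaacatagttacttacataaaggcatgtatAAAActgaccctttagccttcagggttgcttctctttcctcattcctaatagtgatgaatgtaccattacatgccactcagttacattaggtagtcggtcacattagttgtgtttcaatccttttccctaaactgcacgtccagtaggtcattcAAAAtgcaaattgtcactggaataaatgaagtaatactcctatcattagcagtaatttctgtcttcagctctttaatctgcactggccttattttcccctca

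GLIPR1-AS1, an antisense RNA on chromosome 12, held 134 and 283 UMIs and was found in 83.1% of WT cells (exact 95% interval 76.1% to 88.8%). COA6-AS1 on chromosome 1 held 113 and 206 UMIs and was found in 73.6% of the cells. Its exons face those of COA6, which held 567 UMIs in WT and 482 in SCC4 KO, so the facing gene was listed in both genotypes. Whether the strand was used in counting is not given in the sources used here, and reads of facing exons may be hard to tell apart.

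KLRF1 encodes NKp80, an activating receptor of natural killer cells. It held 163 and 85 UMIs in the WT batches and was found in 71 of 73 and 31 of 75 cells, and the highest cell held 30 of its UMIs. Its neighbor CLEC2B, 41.9 kb away, encodes the ligand of NKp80 and held 177 UMIs in WT and 61 in SCC4 KO, a ratio of 0.376. NELL1, a secreted protein with EGF-like domains linked to bone formation, held 102 and 138 UMIs and was found in 70.9% of the cells. The pseudogene HMGB1P40, 95.4 kb away, held 104 UMIs in WT and 14 in SCC4 KO, a ratio of 0.151.

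RAET1K, a pseudogene of the family of NKG2D ligands, held 110 and 86 UMIs. ULBP1, a coding member of that family 41.2 kb away, was 92.3% identical to it over 468 bases and held 292 UMIs in WT and 251 in SCC4 KO. ULBP3, another member 64.0 kb away, was higher in SCC4 KO, with 118 and 238 UMIs. The 2 listed members thus had ratios of 0.934 and 2.19.

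The other WT genes within 10-fold between batches held 101 to 178 UMIs. KIF21B, a kinesin motor of microtubules, held 55 and 82 UMIs, and SIPA1L2, a GTPase-activating protein of Rap, held 37 and 74. SPATA24, named for spermatogenesis, held 44 and 58 UMIs and had the lowest share of positive cells of all 44 genes, 37.8%. TSSK6, a testis-specific kinase, held 17 and 98 UMIs, and its start lay 194.7 kb from that of MAU2, the edited gene. NDUFA13, which starts 0.2 kb from TSSK6 on the other strand and encodes a subunit of respiratory complex I, held 8212 and 8990 UMIs in WT and SCC4 KO. ABCC6, a membrane transporter, held 17 and 84 UMIs, and GRK5, a kinase of G protein-coupled receptors, held 83 and 19. GRK5 was 7.15 times higher in batch 1 per total UMIs, just inside 10-fold.

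Among noncoding RNAs of this level, JARID2-DT held 68 and 44 UMIs. It starts 1.1 kb from JARID2, a subunit of Polycomb repressive complex 2 transcribed in the other direction, which held 476 UMIs in WT and 214 in SCC4 KO, a ratio of 0.489. LINC01931 held 21 and 117 UMIs in WT. MMADHC-DT, which overlaps it on the opposite strand, held 6 UMIs in WT and 162 in SCC4 KO. The overlapping entry thus had nearly all of its UMIs in the genotype without a row for LINC01931. ENSG00000228697 held 98 and 80 UMIs, ENSG00000286850 held 107 and 47, and ENSG00000261159 held 73 in each batch.

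Of the genes seen in SCC4 KO alone, FAM83C was the highest and the most even. It belongs to the FAM83 family, whose shared domain anchors casein kinase 1. It held 939 UMIs in batch 1 and 1650 in batch 2, or 14.6 and 14.1 per 100000, and was found in all 77 and all 76 cells, with an exact 95% interval of 97.6% to 100% over 153 cells. The median was 12 UMIs per cell in batch 1 and 21 in batch 2, and the highest cell held 2.28% of its UMIs. EIF6, which starts 7.4 kb away and takes part in making ribosomes, held 5716 UMIs in WT and 6077 in SCC4 KO. FAM83C was thus read in each SCC4 KO cell beside a neighbor that was level. Of its 22 neighbors within 500 kb, 3 were past 2-fold, with ratios between 0.417 and 2.38.

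RFTN1P1, a pseudogene of Raftlin annotated on chromosome Y, held 95 and 211 UMIs in SCC4 KO and was found in 78.4% of the cells. In this haploid line, MORF4L2 on chromosome X held 4306 UMIs in WT and 3883 in SCC4 KO. Whether the UMIs of RFTN1P1 came from chromosome Y was not tested. PTOV1-AS1 held 44 and 195 UMIs. Its exons face those of PTOV1, with 1433 UMIs in WT and 1666 in SCC4 KO, and of MED25, a Mediator subunit with 300 and 412 UMIs. C2orf88, an anchor of protein kinase A at membranes, held 67 and 98 UMIs. CD207 encodes langerin, the lectin of Langerhans cells, and held 79 and 57 UMIs, found in 51.6% of the cells. ALOX12B, a lipoxygenase of the skin barrier, held 31 and 119 UMIs.

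RHEBL1, a small GTPase related to Rheb, held 70 and 55 UMIs. KMT2D, a histone methyltransferase of enhancers that starts 9.2 kb away on the same strand, held 297 UMIs in WT and 586 in SCC4 KO, a ratio of 2.14. C14orf28 held 63 and 39 UMIs, and its nearest neighbor TOGARAM1, 64.9 kb away, held 50 and 139. Both of these neighbors were higher in SCC4 KO, the genotype in which RHEBL1 and C14orf28 were seen. However, 5 of the 16 neighbors of RHEBL1 within 500 kb were past 2-fold. All of these but KMT2D were lower in SCC4 KO, such as TUBA1C at a ratio of 0.471. ENSG00000266680 held 131 and 64 UMIs, ENSG00000275055 held 81 and 52, and STX17-DT held 10 and 128, 6.74 times more in batch 2 per total UMIs. STX17, which shares its start with STX17-DT in the other direction, held 312 UMIs in WT and 164 in SCC4 KO, a ratio of 0.572.

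In 12 genes the counts rested mainly on a single batch. In batch 1 of WT, the read-through entry ENSG00000254553 held 223 of its 230 UMIs, and 107 of them were in 1 cell. DLGAP1-AS3 held 122 of 125 UMIs in the same batch. DLGAP1, a scaffold of synapses within which it lies on the opposite strand, held 31 UMIs in WT and 117 in SCC4 KO, a ratio of 4.05. The other 7 WT genes were found mainly in batch 2. ENSG00000287425 held all of its 178 UMIs there, ENSG00000260404 held 173 of 174, ENSG00000202343 held 137 of 138, ENSG00000285996 held 134 of 137, MORF4L2-AS1 held 110 of 114, ALDH1L2 held 110 of 112, and FRMD3 held 98 of 101. ALDH1L2 is a mitochondrial enzyme of folate metabolism, and FRMD3 is a protein with a FERM domain.

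The values of these genes across cells were also unusual. CFAP47, a protein of cilia and flagella, was found in 76 of 76 cells of SCC4 KO batch 2 with 152 UMIs, of which no cell held more than 5, and in 3 of 77 cells of batch 1. At its mean, 11.2 cells of batch 2 at 0 would be expected from counting error. HOXA6, a homeobox gene, was found in 77 of 77 cells of SCC4 KO batch 1, where 73 cells held exactly 1 UMI and 1 cell held 30. In batch 2 it held 1 UMI. A batch without a cell at 0, where counting error gave 5 or more, was seen in 4 of the 30 WT genes and 2 of the 14 SCC4 KO genes, against 0.126% and 0.231% of the other genes with at least 100 UMIs. All 6 were also past 10-fold between batches. A batch with at least 5 cells at 1 UMI, at least 5 cells at 3 or more and none at 2 was seen in 13 WT genes and 6 SCC4 KO genes. It was found in 65.3% and 65.6% of the other genes, and in 87.3% and 82.8% of those with 100 to 320 UMIs. That feature was thus not particular to the all-or-none genes.

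VAT1L, a relative of a synaptic vesicle protein, rested on 1 cell. It held 525 UMIs in SCC4 KO, of which 456 (86.9%) were in a single cell of batch 2, and 60 of 153 cells had a UMI. With 8 UMIs in batch 1 and 517 in batch 2, it was among the 12 genes past 10-fold between batches. Of the 517, 456 were from that cell, so the 2 features are not separate for VAT1L. Without that cell 69 UMIs were left, below the threshold. Of other annotated SCC4 KO genes with at least 100 UMIs, 2 of 10336 had more than 50% of their UMIs in 1 cell, and in WT 2 of 10321. At 100 to 320 UMIs, a range below VAT1L, it was 0 of 3984 and 1 of 3840. Without its own highest cell, 9 of the 44 genes fell below 100 UMIs, but 33 of the 44 held no more than 200 with it. The same was not counted for other genes. The median share held by the highest cell was 7.37% in WT genes and 6.63% in SCC4 KO genes, against 5.15% and 3.38% in other genes of 100 to 320 UMIs.

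The share of positive cells ranged from 37.8% to 100% with a median of 51.4% in WT genes and from 39.2% to 100% with a median of 51.6% in SCC4 KO genes. For other genes with 100 to 320 UMIs the median was 60.8% in WT and 61.4% in SCC4 KO. Genes seen mainly in 1 batch can reach no more than about the cells of that batch, as for ENSG00000260404, found in 75 of 75 cells of batch 2 and 1 of 73 of batch 1. In genes within 10-fold between batches the positive cells were spread over both, as in CD207, found in 49 of 77 and 30 of 76 cells.

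Positions and copies were then compared to see where reads could have been given to another gene. Another gene overlapped 18 of the 44 genes on the same strand (40.9%), as it did 34.6% of the other genes with at least 100 UMIs. When annotated exons had to overlap, these shares were 22.7% and 16.4%. For most of the 10 genes with shared exons, the partner was an entry without a row in either table. Partners and shares were taken from GENCODE 44, while the reads were counted with GENCODE 33. Whether these entries were in GENCODE 33 was not checked, and an entry missing from it could have no row. A partner with UMIs was found for 2 of them. ENSG00000254553 shares exons with ZBTB8A, which held 168 UMIs in WT and 220 in SCC4 KO, a ratio of 1.42, and with ZBTB8B, which held 65 and 50. LYNX1-SLURP2, a read-through entry with 33 and 79 UMIs in the WT batches, shares exons with LYNX1, which held no UMI in WT and 3 in SCC4 KO. SLURP2, its other partner, was not listed. Whether reads were assigned to the partners was not tested.

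A transcript at another locus with at least 95% identity over at least 100 of the last 500 bases was found for 3 genes (6.82%) and for 9.72% of the other genes. RNU4-1, a U4 RNA of the spliceosome with 18 and 118 UMIs in WT, was 97.2% identical to RNU4-2 over 141 bases. RNU4-2 held 95 UMIs in WT and 14 in SCC4 KO, so the copy was lower in SCC4 KO. HOXA6 was 95.3% identical over 169 bases to HOXA7, which held 0 UMIs in WT and 3 in SCC4 KO. ENSG00000260404 matched BET1L, a protein of vesicle fusion, at 99.1% over 112 bases, as well as several noncoding entries without a row. BET1L held 855 UMIs in WT and 585 in SCC4 KO, a ratio of 0.743. The pseudogene is shown whole, with the stretch aligned to BET1L in capitals.
ENSG00000260404, chr4:118595912-118596049, plus strand: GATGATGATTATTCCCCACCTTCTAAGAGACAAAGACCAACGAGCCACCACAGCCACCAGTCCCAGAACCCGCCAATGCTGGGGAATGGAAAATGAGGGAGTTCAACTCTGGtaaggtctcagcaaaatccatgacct

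The aligned stretch covers 112 of its 138 bases, and the remaining bases follow it at the 3′ end. ENSG00000202343, a small nucleolar RNA of chromosome 6, lies within the ribosomal protein pseudogene RPS18P9 on the same strand. RPS18P9 held 237 UMIs in WT and 365 in SCC4 KO, a ratio of 1.67. Whether reads of the small RNA were given to its host was not tested. Exons on the opposite strand overlapped those of 13 of the 44 genes (29.5%) and of 38.8% of the other genes. The facing gene was listed for 4 WT genes (13.3%) and 4 SCC4 KO genes (28.6%), against 26.3% and 26.4% of the other genes. MORF4L2-AS1 faces MORF4L2, with 4306 UMIs in WT and 3883 in SCC4 KO, ENSG00000275055 faces ZNF432, with 148 and 160, and ALDH1L2 faces NOPCHAP1, with 961 and 1093.

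Put together, 4 features were counted, namely a difference past 10-fold between batches, more than 50% of the UMIs in 1 cell, exons shared with a listed gene on the same strand and a listed copy at 95% identity. At least 1 of them was met by 11 of the 30 WT genes (36.7%) and 3 of the 14 SCC4 KO genes (21.4%), against 13.8% and 14.0% of the other genes with at least 100 UMIs. The other 30, 19 of WT and 11 of SCC4 KO, met none. Of these 30, 4 had exons facing a listed gene, ENSG00000279366 lay within SMAD2 and RAET1K resembled ULBP1 at the lower identity given above. RFTN1P1, also among the 30, was annotated on chromosome Y, with the limit given above. The way in which the tables were built and the batch correction were not tested for them, and the knockout and the choice of clones cannot be told apart in these samples.

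Genes around the all-or-none genes were compared next, to see whether their neighbors differed as well. Within 500 kb of their starts, 311 other genes had at least 100 UMIs in either genotype, around 41 of the 44 genes. Of these neighbors, 42 were past 2-fold between genotypes (13.5%), and among all 11018 other genes 13.5% were. Of the 42, 27 were higher and 15 lower in the genotype with the all-or-none gene. The 27 include MAU2, the edited gene itself, as a neighbor of TSSK6. The median log2 ratio of the neighbors, taken toward the genotype in which the all-or-none gene was seen, was -0.01. No test of these counts was made.

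Closer to the genes, with starts within 100 kb, 14 of 77 neighbors were past 2-fold (18.2%). Of the 14, 13 were higher in the genotype that had the all-or-none gene. Genes that overlap but start further away are not counted here, such as MMADHC-DT at LINC01931 and DLGAP1 at DLGAP1-AS3. Both of those were higher in the other genotype. The median log2 ratio of the 77 neighbors was 0.08. They included CLEC2B, HMGB1P40, JARID2, KMT2D and TOGARAM1, given above. Further ones were PXN-AS1, 92.0 kb from RNU4-1, with 101 UMIs in WT and 15 in SCC4 KO, GINM1, 28.3 kb from ENSG00000202343, with 213 and 89, and TCEAL3, 79.8 kb from MORF4L2-AS1, with 1236 and 405. Beside genes seen in SCC4 KO, ATF5, a stress-induced transcription factor 77.0 kb from PTOV1-AS1, held 1209 UMIs in WT and 2721 in SCC4 KO, ZNF615, 40.5 kb from ENSG00000275055, held 46 and 115, and MT1P3, 74.4 kb from FAM83C, held 74 and 163. RPL9P18, near ENSG00000266680, held 796 and 1498. ULBP3 near RAET1K was the exception. Within 1 Mb, 40 neighbors were past 2-fold toward the gene and 39 away from it.

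**Figure D4:**
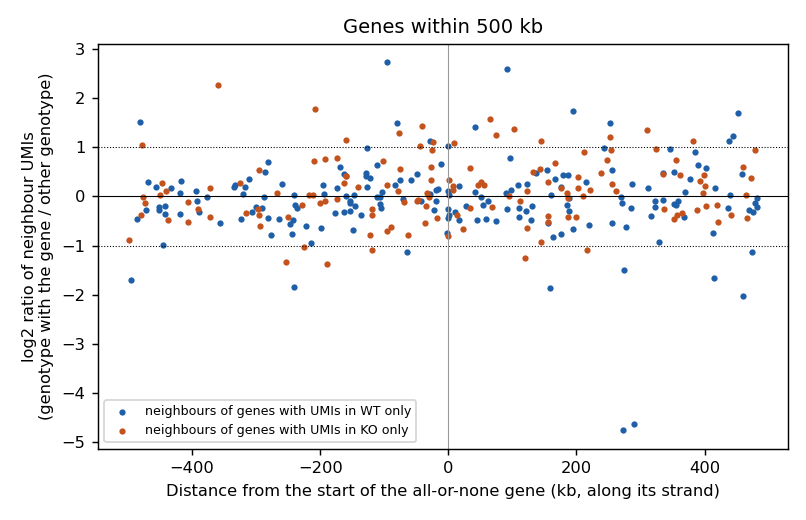
Each point is a gene with at least 100 UMIs within 500 kb of an all-or-none gene, at its distance from that gene's start in kb and with the log2 ratio of its UMIs in the genotype that has the gene over the other. Dotted lines mark 2-fold, and within 100 kb 13 points lie above the upper line and 1 below the lower line.

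The largest neighbor differences went the other way. Beside LINC01931, MMADHC-DT was 27.2 times higher in SCC4 KO, and ENSG00000286125, 289.7 kb from ENSG00000285996, held 5 and 125 UMIs. The HOXA cluster around HOXA6 was read gene by gene. HOXA5, 6.9 kb away, held 99 UMIs in WT and 100 in SCC4 KO, but 82 and 17 in the batches of WT and 7 and 93 in those of SCC4 KO. HOXA9 held 500 and 999 UMIs, higher in SCC4 KO in both batches, and HOXA10 held 1232 and 1128. HOXA13, at the end of the cluster, held 459 and 399, and the antisense HOXA-AS3, whose exons face HOXA6, held 9 and 35. Within the cluster, HOXA5 and HOXA6 thus differed more between the batches of SCC4 KO than HOXA9 did between genotypes.

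HEK293T cells were looked at last, with 20 cells in 2 LAST-seq libraries and 20 cells in 2 CEL-seq2 libraries. In LAST-seq, 27 of the 44 genes had at least 1 UMI, 18 of the 30 WT genes and 9 of the 14 SCC4 KO genes. With CEL-seq2 it was 30 of 44. Among other genes with 100 to 320 eHAP1 UMIs, 95.2% were found in HEK293T LAST-seq and 97.6% in CEL-seq2, against 59.0% and 71.8% of the 39 all-or-none genes of that range. No UMI or read was found in any HEK293T assay for 9 of the 44 genes, KLRF1, ENSG00000286850, RNU4-1, LYNX1-SLURP2, FRMD3, VAT1L, RFTN1P1, ENSG00000266680 and CD207.

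The most abundant in HEK293T LAST-seq was ENSG00000279366, with 36 and 92 UMIs in the LAST-seq libraries and UMIs in 20 of 20 cells, or 6.4 UMIs per cell against 7.45 in WT eHAP1 cells. GLIPR1-AS1 held 44 and 54 UMIs, ALDH1L2 held 14 and 28, and ENSG00000256399 held 14 and 18 in 14 of 20 cells. The mean of ENSG00000256399 was 1.6 UMIs per HEK293T cell and 73.0 per WT eHAP1 cell. Among genes of SCC4 KO, C14orf28 held 19 and 9 UMIs and RHEBL1 held 0 and 17, and FAM83C held 5 and 0. FAM83C, at 16.9 UMIs per SCC4 KO cell, thus had a mean of 0.25 per HEK293T cell.

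**Figure D5:**
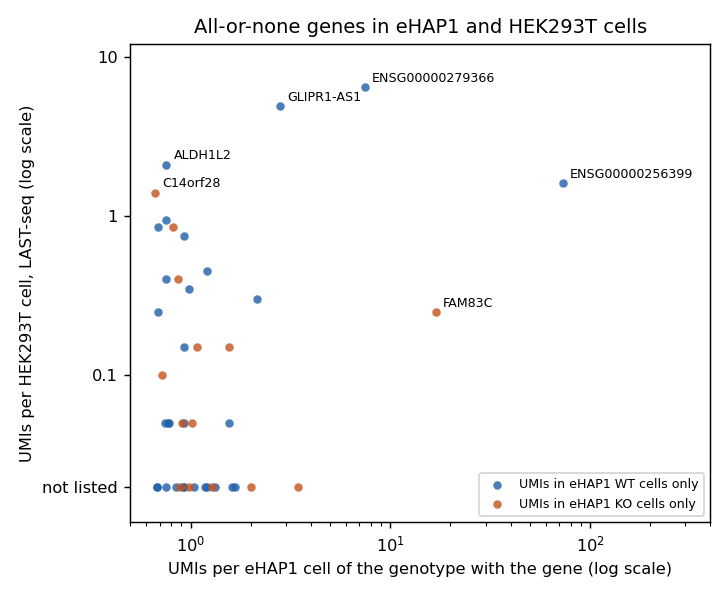
Each point is an all-or-none gene, with the mean UMIs per eHAP1 cell of the genotype that had it on the horizontal axis and the mean UMIs per HEK293T cell in LAST-seq on the vertical axis, both log, and genes not found in HEK293T on the line "not listed". ENSG00000279366 has nearly the same mean in both lines, while ENSG00000256399 and FAM83C are far higher in eHAP1.

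The assays differed for several genes. Neither ENSG00000256399 nor ENSG00000279366 had a UMI in CEL-seq2 or a read in SMART-seq. Of the 8495 genes with at least 30 UMIs in the HEK293T LAST-seq cells, 8 had no CEL-seq2 UMI (0.0942%), and these 2 were among them, out of 4 all-or-none genes at that level. The totals were 2934671 UMIs in LAST-seq and 3010018 in CEL-seq2, in 18848 and 27413 listed genes. In the other direction, HOXA6 held 139 and 28 UMIs with CEL-seq2 and 1 and 1 with LAST-seq, and ENSG00000228697 held 119 and 148 against 4 and 5. LINC01931 held 32 and 15 against 0 and 1. SMART-seq had reads of 13 of the 44 genes, against 79.6% of the other genes with at least 100 eHAP1 UMIs. At 100 to 320 eHAP1 UMIs, it had reads of 30.8% of the 39 all-or-none genes and 66.9% of the other genes. However, all of its 6 cells matched wells labelled as cell lysate to within sampling noise, so they may not be single cells.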

How the data were processed

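For eHAP1 cells, the authors deposited counts of UMIs per gene and cell, and for HEK293T cells counts of UMIs (LAST-seq, CEL-seq2) or reads (SMART-seq). Per the labels and methods, reads were demultiplexed with bcl2fastq 2.20, aligned to GRCh38 with GENCODE 33, counted in exons with zUMIs and collapsed by UMI, and HEK293T reads were subsampled to an equal depth. Whether ComBat-seq had been applied to the deposited eHAP1 counts is not stated. Counts were summed over cells per genotype and batch, the batch taken from the start of the cell names. Ratios were scaled to total UMIs with 0.5 UMI added. Gene types, positions and exons came from GENCODE 44 on GRCh38, which held all 44 genes and lacked 107 of the listed identifiers. Copies were searched with BLAST 2.17.0 from the last 500 bases of the longest transcript, overlaps with bedtools 2.31.1, and TMM factors came from edgeR 4.0.16, with Python 3.11.15, pandas 2.3.3 and scipy 1.17.1 for the rest. 1 gene was left out of all counts of genes, 1 of the 44 genes enters the counts alone, and neither these nor 1 marker gene are reported here. The rule and the ratio were tested on simulated data. Exact intervals are Clopper-Pearson. SMART-seq cells were matched to lysate wells by a measure that is near 1 for counting noise alone, the squared difference of reads divided by their sum, averaged over genes with at least 20 reads in the pair. It was 0.939 to 1.00 for the best match of each cell and 33.6 or more for the next. The genes named were the 20 with most UMIs, those with an overlap, copy, batch or cell feature or a nearby member, and cohesin genes, and the remaining genes, the neighbors and HEK293T examples were added after their values were seen. The genes and lists were chosen with earlier results of these data known.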

Additional observations from a re-analysis of the deposited data

How the results depend on the processing

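The count of 44 all-or-none genes was 176 with a minimum of 50 UMIs and 11 with 200, and 20 without batch 1 of both genotypes and 14 without batch 2, where the same threshold of 100 UMIs met fewer cells. In alternatives chosen after seeing the data, it was 0 when the other table had to list the gene with zeros. Few genes could meet that setting, since 43 rows of WT and 1 of SCC4 KO had a total of 0. The count was 32 without genes past 10-fold between batches and 35 without the highest cell of each gene. It was 38 without genes that had a batch with no cell at 0. With up to 3 UMIs allowed in the other genotype it was 48, with cells of at least 50000 UMIs 43 and with the deeper genotype thinned 39. The share of neighbors past the limit was 18.2% within 100 kb, 28.6% at 1.5-fold, 4.50% at 3-fold, 21.6% with at least 20 UMIs and 34.5% with no minimum beyond 1 UMI, against 13.5%, 32.1%, 4.43%, 22.7% and 39.1% of all other genes under the same settings. Same-strand overlap counted 10 genes by exons, and copies counted 5 genes at 90% and 1 at 98% identity. Genes found in HEK293T were 13 in SMART-seq. With 1 LAST-seq library left out they were 22 without the first and 17 without the second, with 10 cells left each time. The cause was not tested. TMM moved all log2 ratios by -0.07. No paired analysis was possible because the results come from no test and each genotype is 1 sample. Depth limits what an absent row can show, and the cause of the absence was not tested.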
